A study of Delphinapterus leucas with 24 samples.

Results

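Toll-like receptors and their co-receptor CD14 were examined in the blood of beluga whales (Delphinapterus leucas), a toothed whale of Arctic and sub-Arctic waters. The genes were chosen by Entrez Gene ID, for TLR1 to TLR9 and CD14, and 8 of these 10 IDs were listed among the 9855 distinct IDs of the expression table. The listed IDs were TLR2 (Entrez ID 7097), TLR3 (7098), TLR4 (7099), TLR5 (7100), TLR6 (10333), TLR7 (51284), TLR8 (51311) and CD14 (929). They were carried by 13 of the table's 45872 features, each of which is a group of transcripts assembled from the reads. No row carried the IDs of TLR1 (7096) or TLR9 (54106), so no level is given for either. Every feature of the table had a mean of at least 0.995 TPM and values above 0 in at least 12 libraries. These are the lowest values seen among the features, and a receptor below them may have no row. Only 14079 of the 45872 features carried an Entrez Gene ID, and a receptor among the features without an ID would not be found here.

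Whole blood was sampled in Bristol Bay, Alaska, and RNA was sequenced in 24 libraries, 8 from each of 2012, 2013 and 2014. The 2012 group held 3 females and 5 males, the 2013 group 4 and 4, and the 2014 group 2 and 6. No treatment is given in the labels, and neither is the age or health of the animals. Sampling fell in September in 2012 and almost wholly in August in the other years, so in comparisons with 2012 year and season cannot be told apart. Sampling in 2013 and 2014 covered nearly the same days of the year. The comparisons ask which transcripts differed between the sexes or among the years. Values are TPM (transcripts per 1000000, a measure per transcript length in which each library adds up to a fixed total), and TPM keeps no sequencing depth. The labels do not tell whether an animal was sampled more than once, so p-values measure only the spread between these libraries.

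Toll-like receptors recognise molecules that microbes share, and most signal through the adaptor MyD88 to switch on inflammatory genes. In humans and mice TLR2, TLR4, TLR5 and TLR6 sit mainly at the cell surface, where they detect bacterial lipoproteins, lipopolysaccharide and flagellin. TLR3, TLR7 and TLR8 sit in endosomes and detect RNA. CD14 hands lipopolysaccharide to TLR4 and also serves TLR2, and in blood it is best known as a protein of monocytes. Among blood cells, neutrophils and monocytes are known for carrying TLR2, TLR4 and TLR8.

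A few very abundant features took up a different part of each library, and since TPM has a fixed total, the more they take the lower all other values are. The 3 most abundant features held from 2.72% to 54.3% of TPM, and over 50% in 2 libraries, male 2012 replicate 1 and female 2014 replicate 1. A list of 4 red cell marker IDs, all 4 listed, summed to a median of 133355 TPM in 2012 (27067 to 542357), 281802 in 2013 (76172 to 452706) and 314048 in 2014 (211330 to 543764). Results are therefore given on the deposited scale and after median-ratio scaling, which divides each library by 1 size factor, the median over features of its value relative to their geometric mean. Marker lists of white blood cells were measured too, with 5 of 5 monocyte IDs, 5 of 6 neutrophil IDs, 5 of 5 T cell IDs and 4 of 4 B cell IDs listed.

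CD14 was by far the most abundant of the 8 genes, at 484.9 ± 184.7 TPM (SD, n = 24), and ranked 99 of 9855 IDs by mean TPM. Of the receptors themselves, TLR2 was highest at 47.5 ± 15.6 TPM, followed by TLR6 at 40.9 ± 11.4 TPM and TLR8 at 31.4 ± 13.3 TPM (SD, n = 24 each). TLR4 stood at 18.0 ± 5.53 TPM, TLR7 at 13.1 ± 4.17 TPM, TLR5 at 12.5 ± 4.69 TPM and TLR3 at 5.31 ± 2.07 TPM (SD, n = 24 each). TLR2, TLR6 and TLR8 together made up 71.0% ± 3.87 (SD, n = 24) of the summed TPM of these 7 receptors, with a range of 65.5% to 80.6%. The 4 surface receptors made up 70.8% ± 4.34 and the 3 endosomal receptors 29.2% ± 4.34 (SD, n = 24).

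Among these 7 receptors TLR2 was the most abundant in 18 libraries, TLR6 in 4 and TLR8 in 2, while TLR3 was last in all 24. In 23 libraries the leading 3 receptors were TLR2, TLR6 and TLR8. The exception was male 2014 replicate 1, where TLR4 at 21.6 TPM stood above TLR8 at 19.0 TPM. Neighbours in the order were compared by the mean of their log2(TPM + 1) difference within a library against its SD. CD14 lay above TLR2 by 3.30 ± 0.27, TLR8 above TLR4 by 0.72 ± 0.49, TLR4 above TLR7 by 0.44 ± 0.31 and TLR5 above TLR3 by 1.09 ± 0.37 (log2, SD, n = 24), each beyond the SD. TLR2 and TLR6 (0.19 ± 0.39), TLR6 and TLR8 (0.43 ± 0.44) and TLR7 and TLR5 (0.09 ± 0.41) did not differ beyond their spread. Even so, TLR2 exceeded TLR6 in 20 of 24 libraries and TLR6 exceeded TLR8 in 19, while TLR7 exceeded TLR5 in 12.

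**Figure D1:**
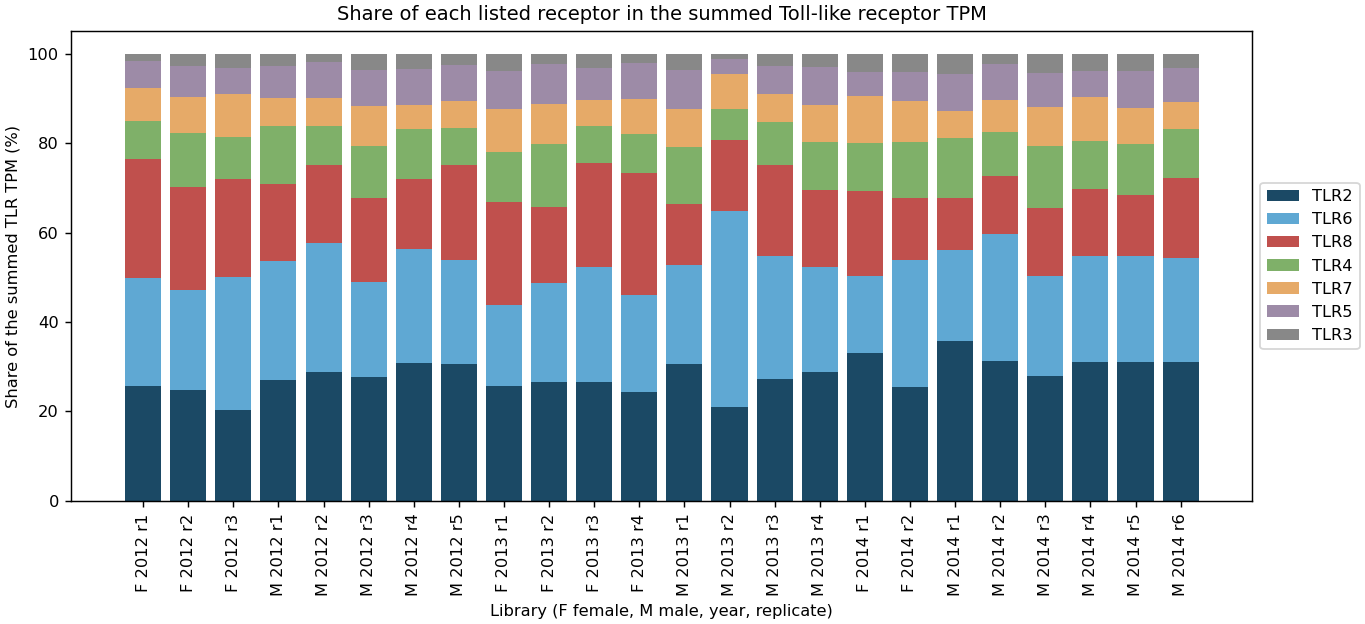
Share of each of the 7 listed Toll-like receptors in their summed TPM, as a percentage on the vertical axis, in each of the 24 libraries ordered by year and sex. TLR2, TLR6 and TLR8 hold between 65.5% and 80.6% in every library, and TLR3 holds 4.66% at most.

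The co-receptor CD14 lay between 232.2 and 994.9 TPM in 2012 (median 525.8), between 194.4 and 581.0 in 2013 (median 463.0) and between 225.6 and 658.1 in 2014 (median 469.1). The 3 years overlapped, with the highest library in 2012 (male replicate 5) and the lowest in 2013 (male replicate 2). Its ID was carried by 4 features, of which TR3082|c0_g1 held 98.0% of the summed CD14 TPM. The other 3 features averaged between 1.29 and 5.58 TPM.

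TLR2, the receptor for bacterial lipoproteins that pairs with TLR1 or TLR6, ranged from 17.0 to 94.3 TPM in 2012 (median 49.4), from 21.7 to 54.1 in 2013 (median 46.7) and from 32.3 to 60.9 in 2014 (median 48.5). Its median was nearly level over the years and its spread was widest in 2012, which held both the lowest and the highest library. TLR6, its partner for diacylated lipoproteins, ranged from 16.8 to 71.6 TPM in 2012 (median 47.4), from 25.6 to 54.7 in 2013 (median 37.9) and from 21.9 to 46.6 in 2014 (median 37.6). Medians of TLR6 were lower in the 2 later years, and the ranges overlapped. TLR1 and TLR6 are close paralogues in other mammals, so the share of reads that an assembly gives to each is uncertain. The assembly cluster of TLR6 held another feature, TR4303|c0_g2 (Entrez ID 81793), at 8.03 ± 2.57 TPM (SD, n = 24). Its ID is that of TLR10, which was not among the chosen genes. TLR10 is left out of the receptor sums, shares and order, although its mean lay above the 5.31 TPM of TLR3.

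TLR4, the lipopolysaccharide receptor, ranged from 8.21 to 27.7 TPM in 2012 (median 17.5), from 7.11 to 22.4 in 2013 (median 17.8) and from 13.2 to 27.0 in 2014 (median 18.2). All 3 medians of this receptor lay between 17.5 and 18.2 TPM. TLR5, the flagellin receptor, ranged from 4.54 to 24.8 TPM in 2012 (median 13.2), from 3.47 to 16.6 in 2013 (median 13.0) and from 7.04 to 16.2 in 2014 (median 12.1). The lowest TLR5 value, in male 2013 replicate 2, belonged to the library that was also lowest for CD14, TLR3 and TLR4. In that same library TLR6 reached 45.0 TPM and made up 43.7% of the receptor TPM, against a mean share of 24.7% ± 5.18 (SD, n = 24).

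**Figure D2:**
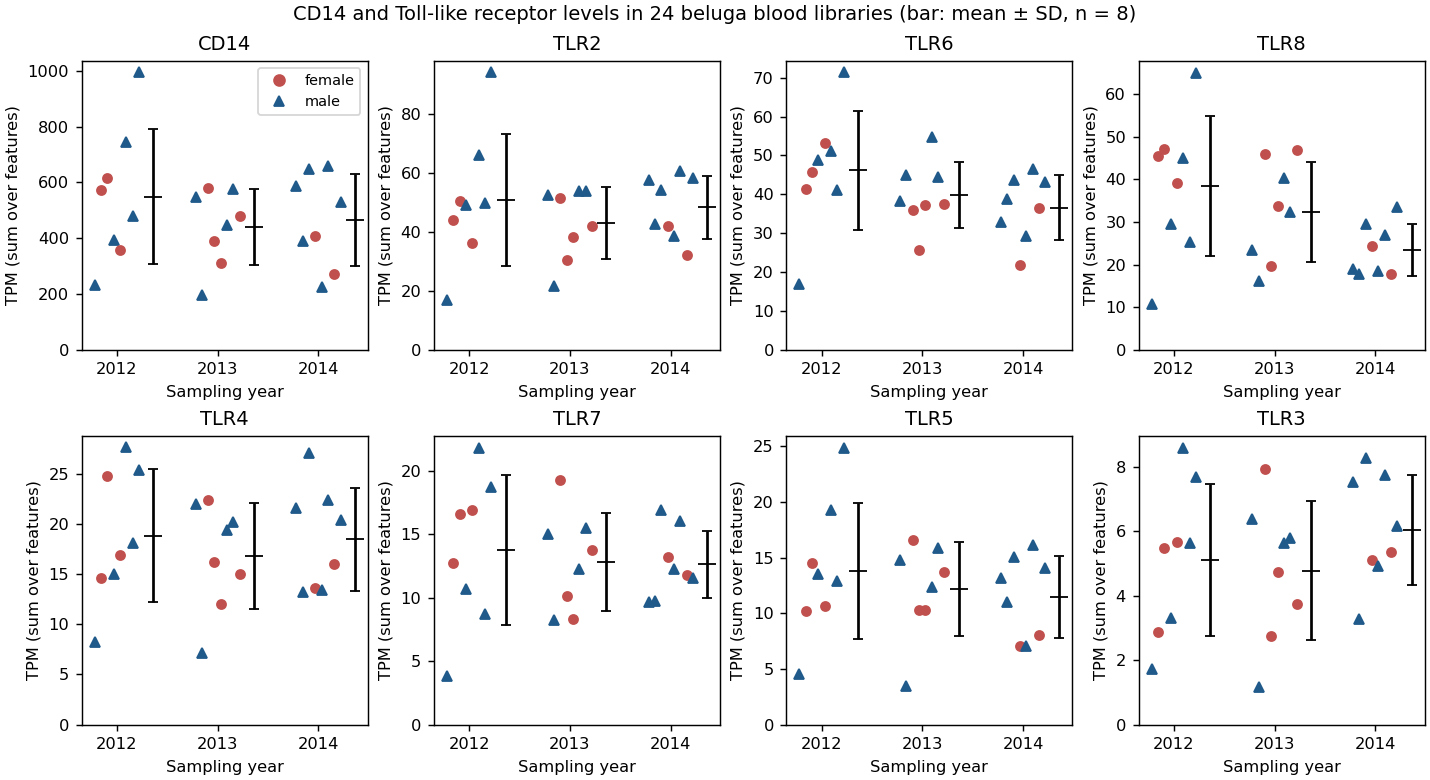
Summed TPM of CD14 and the 7 listed Toll-like receptors in every library, by sampling year, with circles for females, triangles for males and a bar for the mean ± SD of the 8 libraries of a year. The years overlap for every gene, and TLR8 has its lowest yearly mean, 23.4 TPM, in 2014.

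Of the endosomal receptors, TLR8, which detects single-stranded RNA, had the widest difference between years on the deposited scale. It ranged from 10.8 to 65.1 TPM in 2012 (median 42.2), from 16.2 to 47.0 in 2013 (median 33.1) and from 17.7 to 33.5 in 2014 (median 21.6). Medians went down from year to year and the ranges still overlapped, since male 2012 replicate 1, at 10.8 TPM, lay below every 2014 library. As a share of receptor TPM, which does not depend on the scaling of a library, TLR8 made up 20.2% ± 3.63 in 2012, 19.7% ± 4.60 in 2013 and 14.9% ± 2.46 in 2014 (SD, n = 8 each). Over the same years the share of TLR2 was 27.0% ± 3.48, 26.3% ± 2.84 and 30.8% ± 3.10 (SD, n = 8 each). These shares were not tested.

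TLR3, the receptor for double-stranded RNA, was the least abundant of the 7 receptors. It ranged from 1.74 to 8.57 TPM in 2012 (median 5.54), from 1.17 to 7.92 in 2013 (median 5.19) and from 3.28 to 8.26 in 2014 (median 5.76). No library listed it at 0. Its share of receptor TPM was 2.72% ± 0.68 in 2012, 2.82% ± 0.91 in 2013 and 3.84% ± 0.70 in 2014 (SD, n = 8 each).

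TLR7, the other sensor of single-stranded RNA, ranged from 3.85 to 21.8 TPM in 2012 (median 14.7), from 8.21 to 19.3 in 2013 (median 13.0) and from 9.70 to 16.9 in 2014 (median 12.0). This sum hid a split between its features. The ID was carried by 3 features of 1 assembly cluster, TR6807|c0_g1, TR6807|c0_g2 and TR6807|c0_g3, which carried the same protein annotation. In 19 libraries (11 male, 8 female) c0_g3 dominated, at 3.50 to 19.0 TPM, and c0_g2 made up 0% to 10.4% of TLR7.

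In 4 libraries the order was turned around, and all 4 were male. TR6807|c0_g2 stood at 13.8 TPM in male 2013 replicate 1, at 13.7 in male 2013 replicate 4, at 8.58 in male 2014 replicate 2 and at 13.7 in male 2014 replicate 5. In these libraries it made up 85.2% to 92.1% of TLR7, and c0_g3 was down to between 1.18 and 1.85 TPM. Female 2013 replicate 2 lay between, with c0_g2 at 4.79 TPM (47.1%) and c0_g3 at 3.98 TPM. No library of 2012 was of this kind.

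Summed TLR7 did not set these libraries apart, at 9.76 to 16.0 TPM in the 4 and 3.85 to 21.8 TPM in the 19. The pattern was noticed after the values were seen and was not tested. Among 1339 IDs with several features in 1 assembly cluster and a mean sum of at least 10 TPM, 19 (1.42%, TLR7 included) held 2 features that each took over 75% in 3 or more libraries and under 25% in 3 or more. The table does not say what sequence separates the 3 features, and no sequence was used here. In fits per feature c0_g1 and c0_g3 were tested on both scales, and c0_g2, which passed the filter on low values only after scaling, on the scaled values alone. Of the TLR7 features tested 0 were called in any comparison. Between 2014 and 2012, 17.2% of all features were called on the deposited scale but only 0.524% after scaling. No 2012 library held more than 0.79 TPM of c0_g2, so it passed the filter only through libraries of 2013 and 2014. Its fitted year differences, 1.51 ± 0.60 between 2013 and 2012 and 0.98 ± 0.60 between 2014 and 2012 (log2, SE), are therefore no support for a difference between years. The scaled difference between males and females was 0.60 ± 0.52. On the deposited scale c0_g1 had a male minus female difference of -0.67 ± 0.23 (log2, SE) with an adjusted p of 1.0 in limma.

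**Figure D3:**
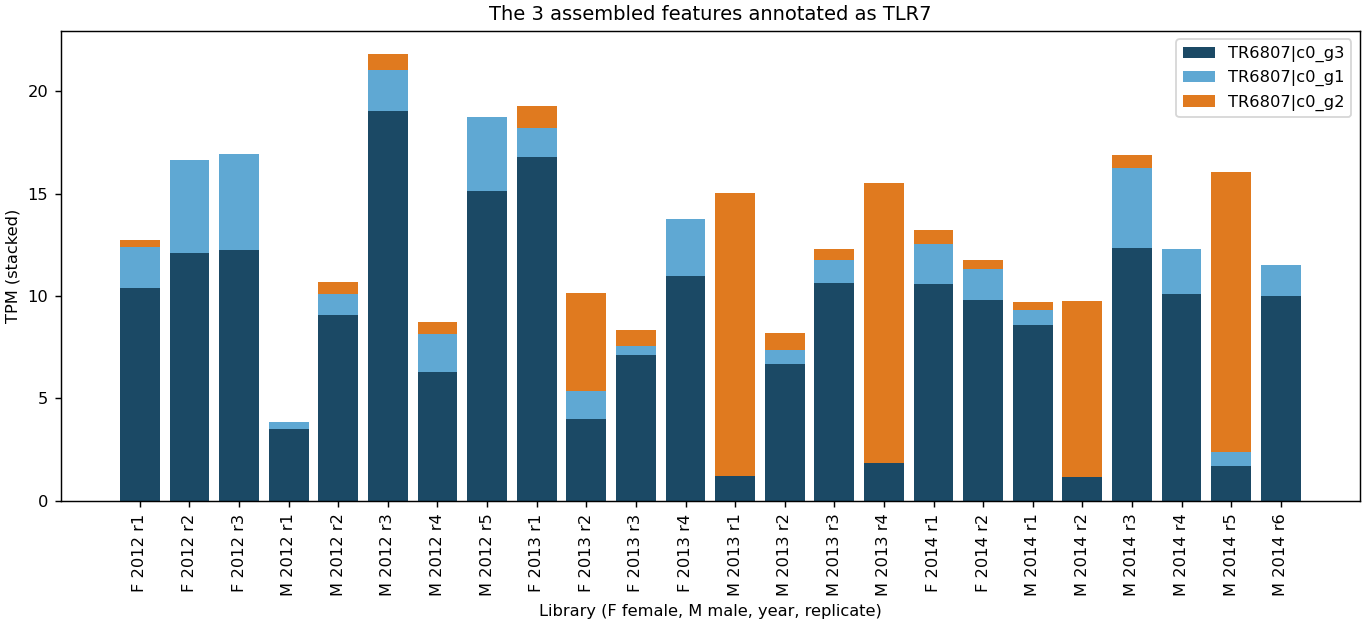
TPM of the 3 assembled features that carry the TLR7 ID, stacked, in each of the 24 libraries ordered by year and sex. Feature c0_g2 dominates in 4 male libraries of 2013 and 2014, where it lies between 8.58 and 13.8 TPM, and c0_g3 dominates in 19 others.

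The years were compared with limma on log2(TPM + 1), with sex in the model, over 9854 IDs. On the deposited scale 0 of the 8 genes passed an adjusted p of 0.05 between 2014 and 2012, against 11.3% of all IDs (25 higher and 1087 lower in 2014). An unadjusted p under 0.05 was held by 1 of the 8 genes, against 3996 of the 9854 IDs. That gene was TLR8, with a difference of -0.55 ± 0.24 (log2, SE; 95% interval -1.04 to -0.06; unadjusted p = 0.0288, adjusted p = 0.0964). TLR6 differed by -0.30 ± 0.21 (95% interval -0.72 to 0.12, adjusted p = 0.237), CD14 by -0.22 ± 0.26 (adjusted p = 0.456) and TLR3 by 0.26 ± 0.24 (adjusted p = 0.354). The median difference of the 8 genes was -0.10 and that of all IDs -0.38. In bulk blood a lower level can come from fewer cells of a type or from less RNA per cell, and these cannot be told apart.

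Whether TLR8 and TLR6 were called depended on a single library. Without male 2012 replicate 1, where the 3 most abundant features took 54.2% of TPM, TLR8 was lower in 2014, at a difference of -0.79 ± 0.21 (adjusted p = 0.00245 in limma) and TLR6 by -0.52 ± 0.16 (adjusted p = 0.00427). Those were 2 of 8 genes, against 76.3% of all IDs called in that fit. Leaving out both libraries over 50% also gave these 2 calls, with 62.7% of all IDs called. In the test of any difference among years (F test), 0 of 8 genes passed on the deposited scale against 1.12% of all IDs. In it 0 of 8 had an unadjusted p under 0.05, against 2292 of the 9854 IDs. Both were called in it without that library (61.9% of all IDs) and without both libraries (44.2%).

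Scaling put 7 of the 8 differences above 0, where 5 of 8 had been below 0 on the deposited scale, TLR2 among them at only -5.5e-05. It moved the median difference of all IDs between 2014 and 2012 from -0.38 to 0.12, and that of the 8 genes from -0.10 to 0.42. TLR3 was called higher in 2014, by 0.74 ± 0.22 (log2, SE; 95% interval 0.29 to 1.19; adjusted p = 0.0451), as were 5.76% of the 9851 IDs tested on this scale (515 higher, 52 lower). Scaled TLR3 ran from 2.31 to 7.07 in 2012 and from 3.72 to 10.7 in 2014, with medians of 4.31 and 7.56, so the years overlapped. The call was lost when any of 13 of the 24 libraries was left out, with adjusted p-values between 0.0218 and 0.128 over the 24 fits. The share of all IDs called in those fits is not given here, and whether the losses were particular to TLR3 was not tested.

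Differences of the other genes on the scaled values were 0.54 ± 0.17 for TLR2 (adjusted p = 0.0515), 0.54 ± 0.20 for TLR7 (adjusted p = 0.0977), 0.52 ± 0.19 for TLR4 (adjusted p = 0.0917) and 0.32 ± 0.24 for CD14 (adjusted p = 0.395). TLR5 gave 0.30 ± 0.20 (adjusted p = 0.335) and TLR6 0.23 ± 0.11 (adjusted p = 0.163). TLR8 gave -0.02 ± 0.18 (adjusted p = 0.963), below the median of all IDs. On both scales it had the lowest difference of the 8 genes and TLR3 the highest. Between 2014 and 2012, 5 of the 8 genes had an unadjusted p under 0.05 on the scaled values, against 2620 of the 9851 IDs. In the F test on the scaled values 0 of 8 genes passed, against 1.46% of all IDs, and 4 of 8 had an unadjusted p under 0.05, against 2452 of the 9851 IDs.

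**Figure D4:**
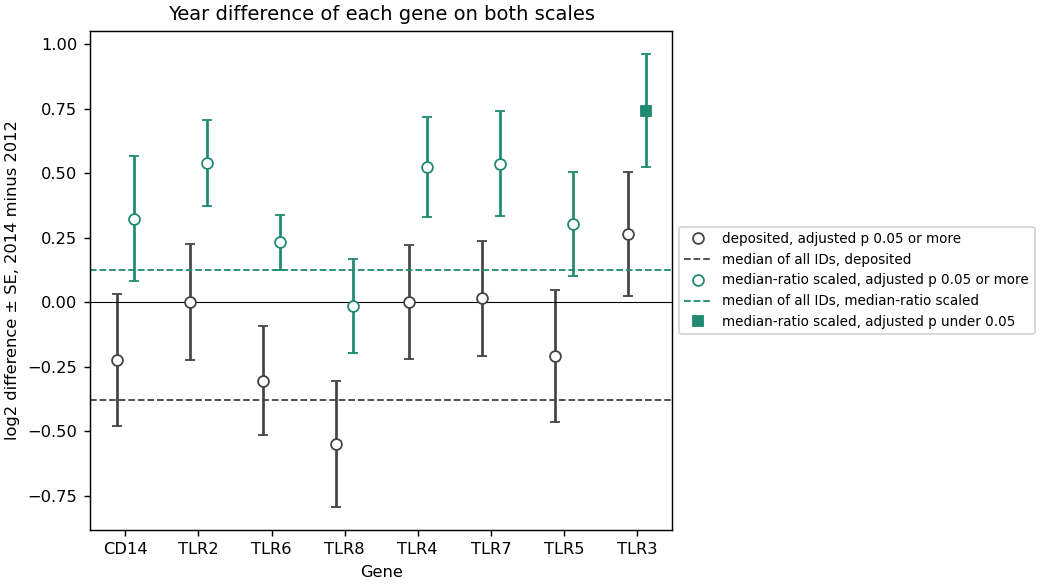
Difference between 2014 and 2012 (log2, ± SE, from limma) of CD14 and the 7 receptors on the deposited and the median-ratio scaled values, with dashed lines at the median of all IDs (-0.38 and 0.12). TLR8 is lowest and TLR3 highest on both scales, and the filled square marks the only call, TLR3 at 0.74 on the scaled values.

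The white blood cell marker lists were summed for the same years. The monocyte IDs summed to a median of 3166 TPM in 2012 (1607 to 4695) and 4403 in 2014 (2552 to 5620), and the T cell IDs to 1468 (851 to 1878) and 1048 (679 to 1211). The neutrophil IDs summed to 7020 TPM in 2012 (3197 to 7647) and 6370 in 2014 (2415 to 10213), and the B cell IDs to 241 (151 to 433) and 172 (106 to 279). These sums follow the most abundant IDs of each list. Per ID, the deposited differences between 2014 and 2012 ran from -0.52 to 0.38 for the monocyte IDs (median -0.14, 0 of 5 called) and from -0.91 to 0.38 for the neutrophil IDs (median -0.50, 1 of 5 called, ID 4318, lower). Of all IDs 11.3% were called in this comparison (25 higher, 1087 lower), with a median difference of -0.38.

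The single pan-leukocyte marker, ID 5788, was lower in 2014, at a difference of -0.64 ± 0.22 (log2, SE; adjusted p = 0.0478 in limma), with a median of 549 TPM in 2012 and 329 TPM in 2014. The difference of TLR8 in the same years was -0.55 and did not pass the test. The median difference of all IDs was -0.38, and 11.3% of them were called, nearly all lower in 2014. Of the red cell IDs, 1 of 4 was called, ID 212, higher by 1.83 ± 0.44 (adjusted p = 0.0222), and of the B cell IDs 1 of 4, ID 930, lower, at -0.60 ± 0.21 (adjusted p = 0.0477). After scaling ID 5788 was not called, at -0.09, and the calls among marker IDs were 212 (2.38), 4069 of the monocyte list (0.93) and 6279 of the neutrophil list (0.93), all higher in 2014. On that scale 5.76% of all IDs were called (515 higher, 52 lower). The part of these cells, and of red cell RNA, in the year differences of the receptors was not tested.

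Between 2013 and 2012, 0 of 8 genes and 0% of all IDs were called on either scale, and all 8 deposited differences lay between -0.25 and -0.03. In limma 0 of the 8 genes had an unadjusted p under 0.05 on either scale, against 99 of all IDs on the deposited and 165 on the scaled values. Between 2014 and 2013, again 0 of 8 genes and 0% of all IDs were called on either scale. The 8 differences ran from -0.33 (TLR8) to 0.35 (TLR3) on the deposited scale, with 0 of the 8 genes and 1361 of the 9854 IDs at an unadjusted p under 0.05. After scaling, all 8 differences were above 0, from 0.09 (TLR8) to 0.74 (TLR3), and 5 of them had an unadjusted p under 0.05, against 2923 of the 9851 IDs.

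Males and females were compared with year in the model. On the deposited scale 0 of 8 genes were called, against 0.101% of all IDs, and 0 of the 8 had an unadjusted p under 0.05, against 134 of all IDs. After scaling 0 of 8 were called against 0.132% of all IDs, and 1 of 8 had an unadjusted p under 0.05, against 339 of all IDs. The widest difference was that of TLR8, with male minus female at -0.27 ± 0.21 (log2, SE; adjusted p = 1.00) on the deposited scale and at -0.40 ± 0.16 on the scaled values (95% interval -0.72 to -0.07; unadjusted p = 0.0178, adjusted p = 1.00). TLR8 ran from 17.7 to 47.2 TPM in the 9 females (median 39.3) and from 10.8 to 65.1 TPM in the 15 males (median 26.9). Female levels lay within the range of the males, although the female median was the higher.

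TLR2 showed the other order, with 30.7 to 51.4 TPM in females (median 41.9) and 17.0 to 94.3 TPM in males (median 54.1), at a difference of 0.22 ± 0.19 (adjusted p = 1.00). The remaining deposited differences lay between -0.15 (TLR7) and 0.22 (TLR6). On 7 dates both sexes were sampled, and with date as a block 0 of 8 genes were called, against 0.101% of all IDs on the deposited scale (131 at an unadjusted p under 0.05) and 0.0914% after scaling (327). TLR8 then gave -0.43 ± 0.23 (unadjusted p = 0.0611, adjusted p = 1.00) on the deposited and -0.48 ± 0.21 (unadjusted p = 0.0382, adjusted p = 1.00) on the scaled values. TLR2 gave -0.05 ± 0.24 on the deposited scale, below 0 where the fit with year had been above.

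Neutrophil IDs summed to a median of 4920 TPM in females and 6579 TPM in males, and monocyte IDs to 2961 and 3800 TPM. The part of these cells in the levels of TLR2 and TLR8 was not tested.

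The balance of the surface receptor TLR2 and the endosomal receptor TLR8 within a library needs no scaling, and it was looked at after the values were seen, with no test. The log2 ratio of TLR2 to TLR8 was 0.86 ± 0.34 in males (SD, n = 15; 0.42 to 1.60) and 0.27 ± 0.40 in females (SD, n = 9; -0.17 to 0.87). In 2012 the sexes did not overlap, at 0.53 to 0.98 in 5 males and -0.12 to 0.10 in 3 females. In 2013 they overlapped, at 0.42 to 1.17 in 4 males and -0.17 to 0.65 in 4 females. In 2014, 6 males lay between 0.80 and 1.60 and the 2 females stood at 0.79 and 0.87. On 6 of the 7 dates with both sexes there was 1 male and 1 female, and the male had the higher ratio on each. The values were farthest apart on 30 August 2013, at 0.74 against -0.17, and closest on 28 August 2014, at 0.88 against 0.79. On 24 August 2013 the male, at 0.42, lay between the 2 females, at 0.16 and 0.65. The order of the sexes was not particular to TLR2. The log2 ratio of TLR6 to TLR8 was 0.65 ± 0.34 in males (SD, n = 15; 0.14 to 1.47) and 0.11 ± 0.45 in females (SD, n = 9; -0.35 to 1.04).

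By year the ratio of TLR2 to TLR8 was 0.42 ± 0.40 in 2012, 0.45 ± 0.41 in 2013 and 1.06 ± 0.28 in 2014 (SD, n = 8 each). TLR2 exceeded TLR8 in 6, 7 and 8 of the 8 libraries of these years, and the 3 exceptions were females. Within females the mean ratio was -0.02 in 2012, 0.21 in 2013 and 0.83 in 2014, and within males it was 0.69, 0.69 and 1.13. The ratio of TLR7 to TLR8 was also higher in 2014, at -0.87 ± 0.30, than in 2012, at -1.49 ± 0.26 (SD, n = 8 each).

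**Figure D5:**
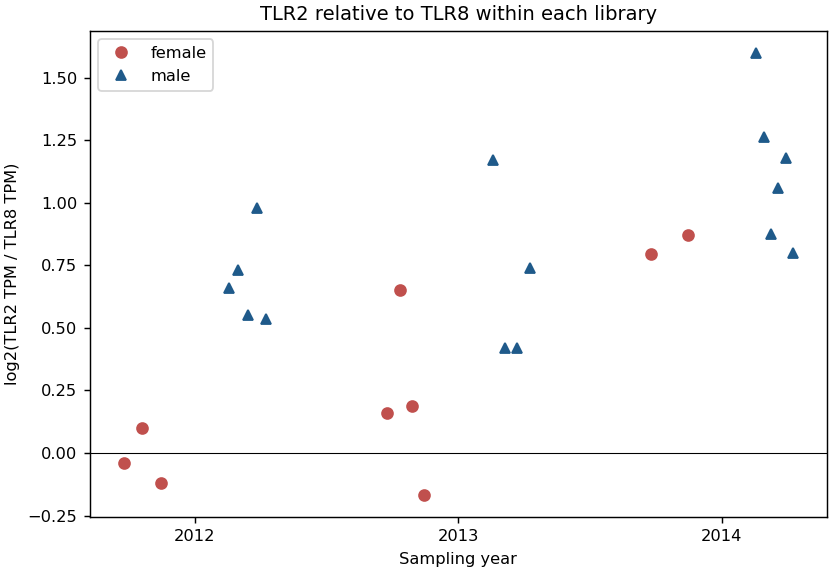
Log2 ratio of TLR2 TPM to TLR8 TPM in each library by sampling year, with circles for females and triangles for males. In 2012 all 5 males (0.53 to 0.98) lie above all 3 females (-0.12 to 0.10), and in 2014 every library lies at 0.79 or above.

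Receptors that work together were compared across the 24 libraries as 3 pairs, with p-values from 100000 permutations, two-sided and adjusted over the 3. TLR4 and CD14, which act together on lipopolysaccharide, had a Pearson r of 0.87 on log2 values (p = 1e-05, the smallest that the permutations can give, adjusted p = 1.5e-05) and a Spearman rho of 0.88 (p = 1e-05, adjusted p = 3e-05). Within years r was 0.88 in 2012, 0.96 in 2013 and 0.81 in 2014 (n = 8 each), and without the 2 libraries farthest from the median it was 0.80. After scaling r was 0.85 and rho 0.87. All IDs share the fixed TPM total, and the median r of TLR4 with all IDs was 0.49 on the deposited scale and 0.37 after scaling.

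TLR7 and TLR8, which both detect single-stranded RNA, had an r of 0.73 (permutation p = 1e-05, adjusted p = 1.5e-05) and a rho of 0.68 (permutation p = 0.00036, adjusted p = 0.00054). By year r was 0.94, 0.58 and 0.60 (n = 8 each), it was 0.62 without the 2 farthest libraries, and scaling gave 0.61 (permutation p = 0.00134, adjusted p = 0.00201). The median r with all IDs was 0.41 for TLR7 and 0.62 for TLR8 on the deposited scale, and 0.25 and 0.08 after scaling. TLR2 and TLR6, which form a receptor pair, were less closely related, with an r of 0.65 (permutation p = 0.00103, adjusted p = 0.00103) and a rho of 0.51 (permutation p = 0.0112, adjusted p = 0.0112). For this pair r was 0.91 in 2012 but 0.28 in 2013 and 0.50 in 2014 (n = 8 each), and after scaling it was 0.43 over all libraries (permutation p = 0.0344, adjusted p = 0.0344) and 0.52, 0.02 and -0.0018 within years. Within 2013 and 2014 the scaled r was thus near 0, over only 8 libraries each, and its difference from the pooled value was not tested. Scaled TLR6 varied little in 2014, with a coefficient of variation of 5.95%. The median r with all IDs was 0.59 for TLR2 and 0.68 for TLR6 on the deposited scale, and 0.33 and 0.07 after scaling. The deposited r of this pair, 0.65, thus lay below the median of TLR6 with all IDs. For all 3 pairs the permutations test r only against 0. Their p-values therefore cannot set a pair apart from the correlation that these genes share with all IDs.

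The IDs most like CD14 and TLR2 were sought among 8356 IDs with a mean of at least 5 TPM, by Spearman rho over the 24 scaled libraries. For CD14 they were Entrez IDs 1436 (rho 0.95), 5660 (0.94) and 1495 (0.93). For TLR2 they were 2271 (0.91), 6453 (0.90) and 4481 (0.90). The files do not pair IDs with symbols, so these IDs are left without names. ID 1436 is 1 of the 5 on the monocyte marker list, and the rho of the others on that list with CD14 is not given here.

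Of the wider signalling pathway, 42 of 46 listed IDs could be tested, in lists of receptor cofactors, trafficking factors, adaptors, kinases and ubiquitin ligases, transcription factors and inhibitors. Between 2014 and 2012, 3 of the 42 were called on the deposited scale, all lower, against 11.3% of all IDs. They were ID 11213 of the inhibitor list (21.6 ± 9.04 TPM in 2012, 11.6 ± 3.16 in 2014; -0.76 ± 0.23, adjusted p = 0.0338), ID 114609 of the adaptor list (16.3 ± 5.91 and 9.50 ± 3.43 TPM; -0.72 ± 0.22, adjusted p = 0.0340) and ID 7189 of the kinase and ligase list (22.7 ± 7.05 and 13.9 ± 3.64 TPM; -0.63 ± 0.22, adjusted p = 0.0457). The median over the 42 IDs was -0.44, near the -0.38 of all IDs.

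After scaling a different 3 of the 42 were called, all higher in 2014, against 5.76% of all IDs. These were ID 29110 of the kinase and ligase list (0.54 ± 0.11, adjusted p = 0.0194), ID 23643 of the cofactor list (0.58 ± 0.13, adjusted p = 0.0274) and ID 1520 of the trafficking list (0.63 ± 0.15, adjusted p = 0.0296). Their deposited means were nearly level, at 20.5 and 19.9 TPM for ID 29110, 62.4 and 64.9 TPM for ID 23643 and 171.1 and 178.9 TPM for ID 1520 in 2012 and 2014. The median over the 42 was then 0.08, against 0.12 over all IDs. Between the sexes 0 of the 42 were called on either scale, with a smallest adjusted p of 1.00 on both.

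The only CD14 feature called in a fit per assembled feature was TR15225|c0_g1, which averaged 2.87 TPM and made up 0.59% of CD14. It was lower in 2014 than in 2012, at a difference of -0.71 ± 0.25 (log2, SE; adjusted p = 0.0427 in limma), with 17.2% of all 45832 features called in that comparison. After scaling the difference was -0.30 ± 0.19 (adjusted p = 0.392) and the call was lost. In that scaled fit per feature 0 of the 8 genes had a feature called, against 0.524% of all features, and 9123 features had an unadjusted p under 0.05. TLR3 there had the same difference of 0.74, with an adjusted p of 0.0773.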

How the data were processed

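Blood RNA was purified with PAXgene reagents and made into strand-directional libraries, per the labels' protocols. The authors assembled the transcriptome with Trinity, per the series' design text, and the submitters' processing notes name Trimmomatic, Bowtie2 and RSEM 1.2.21, without roles. The deposited values are TPM, taken as such because RSEM writes this unit and columns add up to 987069 to 997966. They hold no read counts, so depth is unknown, no interval for counting error is given, and 0 is reported as listed at 0.

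Features were summed per Entrez Gene ID; 1 ID cell held no number and was left out. IDs that reached 1 TPM in 8 or more libraries were tested as log2(TPM + 1) with limma 3.58.1 (R 4.3.3; trend, robust), with Benjamini-Hochberg adjustment over all IDs. The pseudocount understates changes of low genes. All 24 libraries entered each fit. The fit was tested on simulated data. Correlations used scipy 1.17.1. Sex and year came from the labels. Replicate numbers only name libraries.

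Alternatives were median-ratio scaling, the 3 most abundant features left out, the most abundant feature per ID, a fit per feature, a pseudocount of 0.1, no filter or one at 5 TPM, no trend, day of the year added, the other factor left out, males only, 2 libraries left out and each library left out.

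Every member is named. Pathway IDs are named where called, and the 3 IDs most like each of the 2 most abundant members. Members, lists and tests were chosen with earlier results of these data known. Chosen after seeing the data were sampling date as a block between the sexes, scaling combined with leaving out libraries or with a fit per feature, the TLR7 split and the receptor ratios.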

Additional observations from a re-analysis of the deposited data

Results flagged for a closer look

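Of 24 combinations of gene and year, 2 held a library far from the others of its year, where chance gives about 1 in 20. TLR5 stood at 3.47 TPM in male 2013 replicate 2, while the other 7 libraries of 2013 lay between 10.3 and 16.6 TPM. TLR6 stood at 16.8 TPM in male 2012 replicate 1, while the other 7 libraries of 2012 lay between 41.0 and 71.6 TPM. In that library the 3 most abundant features held 54.2% of TPM, and after scaling its TLR6 value was 35.3, inside the range of the others. For male 2013 replicate 2 those features held 45.5%, and the scaled TLR5 value was 4.25, where the rest of 2013 ran from 6.90 to 17.6.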

How the results depend on the processing

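With no depth in TPM, precision rests on the number of libraries. Counts of called genes stayed at 0 on the deposited scale for 2013 minus 2012, 2014 minus 2013 and the sexes under every alternative run. For 2014 minus 2012 the count was 1 after median-ratio scaling (TLR3, 0.743), 1 in the fit per feature, 2 without both libraries over 50% (also in the F test) and 0 to 2 with each library left out (F test 0 to 2). With scaling and each library left out it ran from 0 to 3 for 2014 minus 2012, from 0 to 3 for 2014 minus 2013 and from 0 to 2 in the F test. The share of all IDs called in each of these scaled fits is not given here, so the counts are no result about these genes in particular. TLR3 was lost without each of female 2012 replicates 1, 2 and 3, male 2012 replicates 2, 4 and 5, male 2013 replicates 3 and 4, male 2014 replicates 1, 3, 4 and 5, and female 2014 replicate 1.

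Directions of 7 genes turned in 2014 minus 2012, TLR8 among them, while TLR3 stayed above 0. For TLR2 (-5.5e-05), TLR4 (0.00094) and TLR7 (0.016) the deposited difference was near 0, so a turned sign means little. The cause was not tested. Scaling, leaving out the 3 most abundant features and day of the year gave 0.54, 0.341 and 0.773 for TLR2, 0.303, 0.116 and 0.651 for TLR5, 0.232, 0.0334 and 0.433 for TLR6, and 0.324, 0.12 and 0.296 for CD14. TLR8 turned to 0.427 with day of the year. Sampling ran from day 245 to 256 in 2012 and from day 237 to 246 in 2014. With so little overlap, the values with day of the year cannot separate year from season. TLR2 gave 0.00302 with a pseudocount of 0.1, 0.0278 without sex and 0.0851 in males. TLR7 gave -0.44 with its most abundant feature, -0.00325 without sex and -0.218 without both libraries, where TLR4 gave -0.114. With each library left out TLR2 ran from -0.233 to 0.146, TLR4 from -0.165 to 0.0936, TLR7 from -0.207 to 0.145, CD14 from -0.405 to -0.0754, TLR3 from 0.0963 to 0.381, TLR5 from -0.422 to -0.0717, TLR6 from -0.525 to -0.205 and TLR8 from -0.785 to -0.393. The most abundant feature per ID put TLR5 above TLR7 and left 3 of 7 neighbours beyond their spread, in place of 4. No paired analysis by replicate number was possible because the labels give no replicate numbers. Sampling date as a block called 0 genes between the sexes.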
